A study of Drosophila melanogaster with 4 samples.

Results

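The trypsin and Jonah genes of Drosophila encode secreted serine proteases of the chymotrypsin fold, most of which are made by the enterocytes of the midgut and released into the gut lumen, where they cut dietary protein. They are made as inactive precursors, and a serine, a histidine and an aspartate form the catalytic centre of the active enzyme. Transcript levels of such genes in adult flies are known to follow diet and the state of the gut.

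Transcript levels of these genes were measured in female flies that lacked dSETD3 (CG32732), the fly homologue of a histidine methyltransferase whose substrate is actin, and in controls. The genes were taken by symbol. A probe was a member if the study's probe tables gave its transcript a symbol ending in Try or starting with Jon and a digit, and CG8299, a gene with a predicted trypsin-like product, was added together with every further probe of the same transcripts. This gave 4 probes of 3 genes among 32162 probes: A_09_P115450 and A_09_P056506 for kappaTry (both on transcript FBtr0331940), A_09_P042926 for Jon44E (FBtr0088704) and A_09_P008081 for CG8299 (FBtr0087291). All 3 genes lie on chromosome arm 2R. The members are a small share of their families. The RefSeq annotation lists 11 genes with a Try symbol, all on 2R, and 16 with a Jon symbol, of which 1 was on 2R, and 1 gene of each family had a probe that could be named here. RefSeq also gives kappaTry a synonym in the SPH series, the prefix used for serine protease homologues, while the synonyms of Jon44E and CG8299 carry the prefix of serine proteases.

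The knockout flies carried homozygous loss of CG32732, made by CRISPR-Cas9 with a dsRED cassette in place of the first exon, in a w[1118] background to which the stock had been backcrossed. The control flies were w[1118]. All flies were virgin females aged 5 days. There were 4 arrays, 2 of dSETD3 KO and 2 of control flies, which the labels call biological replicates. The knockout line used was 1 stock, the labels name no dissected tissue, and no gut was measured on its own. In RNA from such bulk samples, fewer cells that express a gene and less RNA per cell cannot be told apart.

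On each array, 63.6% to 66.8% of the probes were well above background, a mark that the scanner software sets for each spot, and no spot was saturated. The 4 arrays lay on 1 slide, with both controls in the first positions and both dSETD3 KO arrays in the later ones, and an effect of slide position cannot be told apart from that of genotype. The deleted gene bore out the labels: A_09_P016351 for CG32732 gave 9.87 and 4.99 on the dSETD3 KO arrays, against 7810 and 7999 on the control arrays. The yolk protein genes Yp1 and Yp3, which mark adult females, had signals of at least 35875 on every array. The male accessory gland genes Acp53C14a, Acp53C14b and Acp53C14c and the testis tubulin betaTub85D did not stand well above background on both arrays of either genotype.

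The RNA signal of the 3 protease genes was lower in dSETD3 KO flies. Jon44E fell 13.2-fold, and kappaTry fell 4.40-fold by 1 of its probes. CG8299 was at least about 22.3-fold lower in background-corrected signal, with a smaller fall under other background handling, given below. The other probe of kappaTry, with a log2 change of -0.67, did not pass the test. Thus 3 of the 4 member probes were called lower and 0 were called higher at an adjusted p under 0.05 (limma across all probes, Benjamini-Hochberg adjustment). Of the 21082 probes tested, 16.5% were called lower (3488) and 3.82% were called higher (806). This split depended on the scaling: 2619 probes were lower and 8298 higher when arrays were scaled to their medians, 2442 and 1419 with quantile normalization, and 2521 and 1495 with cyclic loess. On all 4 member probes both dSETD3 KO arrays were below both control arrays, as they were on 37.2% of the probes tested. On 39.4% both dSETD3 KO arrays were above both control arrays. The probes A_09_P115450 and A_09_P042926 have a symbol here because the study listed them as changed in the same flies. CG8299 was not on the study's list of changed probes as used here, and it was chosen with its fall known. The counts over members are therefore a description and not independent evidence of a direction.

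**Figure D1:**
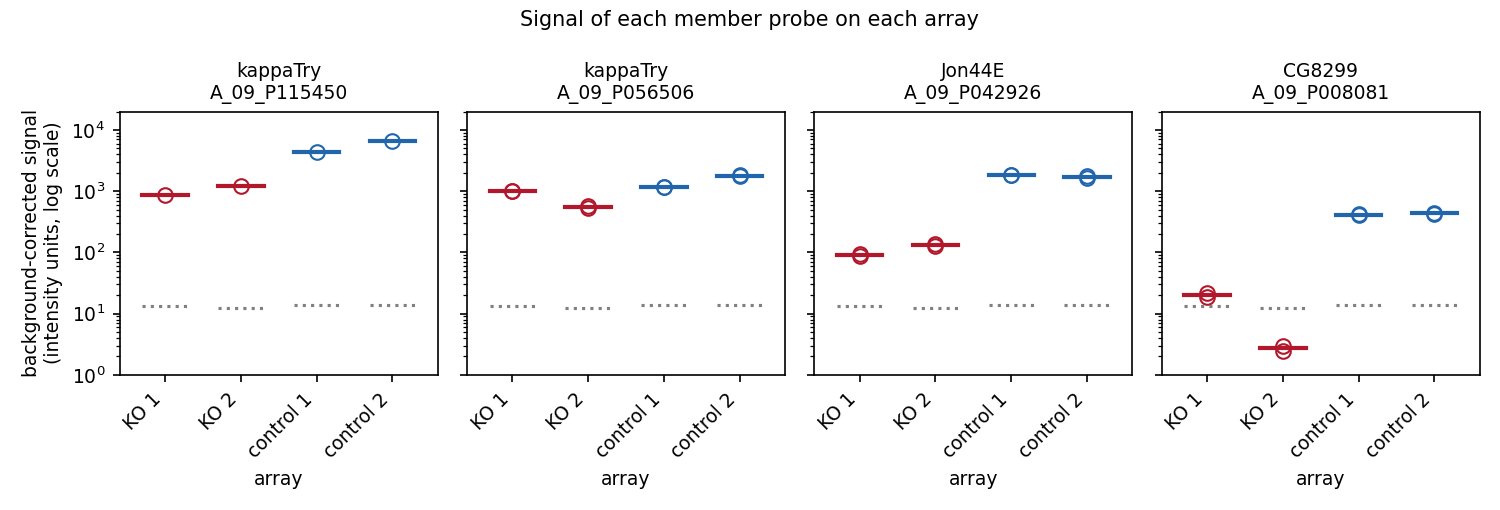
Background-corrected signal (intensity units, log scale) of each member probe on the dSETD3 KO arrays (red, left) and control arrays (blue, right). Circles are single spots, bars their geometric mean, and dotted lines the lowest signal of a probe well above background on that array. For Jon44E, the dSETD3 KO arrays sit at 92.0 and 133 and the control arrays at 1835 and 1707. For CG8299, dSETD3 KO array 2 lies below the dotted line.

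Jon44E encodes a chymotrypsin-like protease of the Jonah family, a group of proteases made in the gut. Its signal was 92.0 and 133 on the dSETD3 KO arrays, against 1835 and 1707 on the control arrays. The control arrays were close to each other, and both dSETD3 KO arrays were far below them. After each array was scaled to its 75th percentile, the log2 values were -4.17 and -3.15 in dSETD3 KO flies, against 0.17 and -0.05 in control flies, so that the nearest values of the genotypes were 3.1 apart on the log2 scale. The log2 change was -3.72 ± 0.37 (SE of the fit, n = 2 arrays per genotype; adjusted p = 0.0175, limma). Only 14 of the probes tested had a change as low as or lower than this, Jon44E included. The dSETD3 KO arrays differed by 2.03-fold after scaling, more than on 97.9% of the probes tested, and the control arrays by 1.16-fold. Each array carries the Jon44E probe on 2 spots, and their signals differed by at most 1.107-fold, which is well below the gap between the dSETD3 KO arrays.

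kappaTry is a gene of the trypsin cluster on 2R. Its probe A_09_P115450, present on 1 spot, gave 858 and 1201 on the dSETD3 KO arrays, against 4410 and 6644 on the control arrays. The groups did not overlap, and within each genotype replicate 2 was the higher. The log2 change was -2.14 ± 0.38 (SE, n = 2 per genotype; adjusted p = 0.0334, limma), and 126 probes tested had a change this low. The nearest values of the genotypes were 1.41 apart on the log2 scale after scaling, and the dSETD3 KO arrays differed by 1.97-fold and the control arrays by 1.39-fold.

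The other kappaTry probe, A_09_P056506, is annotated to the same transcript but moved less. It gave 1006 and 548 on the dSETD3 KO arrays, against 1155 and 1782 on the control arrays. Both dSETD3 KO arrays were lower, but dSETD3 KO replicate 1 was close to control replicate 1, and after scaling the gap between the genotypes was 0.23 on the log2 scale. The log2 change was -0.67 ± 0.23 (SE, n = 2 per genotype; adjusted p = 0.103, limma), which did not pass the threshold. A change this low or lower was found on 16.1% of the probes tested.

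The probes of kappaTry thus gave changes of unequal size. On each array, the log2 ratio of A_09_P115450 over A_09_P056506 was -0.23 and 1.13 in dSETD3 KO flies, against 1.93 and 1.90 in control flies. The ratio was nearly the same on the control arrays and lower on both dSETD3 KO arrays, with a mean difference of -1.46 between genotypes. With 2 arrays against 2, an exact two-sided permutation test cannot give a p below 0.333, and the difference is given as a description with no p. The arrays were also ordered differently, since dSETD3 KO replicate 2 was the higher of the knockout arrays by A_09_P115450 and the lower by A_09_P056506. Spots of A_09_P056506 on 1 array differed by at most 1.1-fold. The trypsin genes are similar in sequence, and whether either probe also reads a neighbouring trypsin was not tested.

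CG8299 came close to or below background in dSETD3 KO flies. The signal was 20.0 and 2.73 on the dSETD3 KO arrays, against 411 and 433 on the control arrays. The control arrays nearly coincided, with a gap of 1.03-fold after scaling. Replicate 1 of dSETD3 KO was well above background and replicate 2 was not. The software gave an error of at most 18.7% for the spots on dSETD3 KO replicate 1 and of 99.7% on dSETD3 KO replicate 2, against at most 10.05% on the control arrays. The level on dSETD3 KO replicate 2 is therefore only a bound, the gap between the dSETD3 KO arrays has no fixed size, and the probe entered the test through the control arrays. With this array set to its lowest signal well above background, 12.2, the mean background-corrected signal was at least 22.3-fold lower in dSETD3 KO flies. This bound does not cover other ways of handling the background, which gave smaller changes. The fitted log2 change was -5.56 ± 0.82 (SE, n = 2 per genotype; adjusted p = 0.0252, limma), a size that rests on the undetected value of dSETD3 KO replicate 2.

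The size of the CG8299 change depended on how the dim signals were handled, and its direction did not. With normexp background correction and an offset of 50, which keeps dim signals away from 0, the log2 change was -2.43 (adjusted p = 0.00129, limma). In the deposited table of spot medians, which has no background subtracted, it was -2.89 (adjusted p = 0.00051, limma). There CG8299 stood at 67.5 and 43.5 on the dSETD3 KO arrays, against 465.5 and 497.25 on the control arrays. Both settings bring dim values closer together, with SEs of 0.097 and 0.099 against 0.82 in the main fit. Their smaller adjusted p values are therefore not stronger evidence of a fall. Without dSETD3 KO replicate 1 the log2 change was -6.75, and without dSETD3 KO replicate 2 it was -4.37. For Jon44E and for A_09_P115450 of kappaTry the deposited table gave log2 changes of -3.23 and -2.09.

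The 3 calls rested on the spread between 2 arrays per genotype. Without control replicate 1 the adjusted p was 0.0772 for Jon44E, 0.106 for A_09_P115450 of kappaTry and 0.108 for CG8299, and without control replicate 2 it was 0.138, 0.196 and 0.162 in the same order. In both of these fits 0 of all probes tested were called by limma, with 7170 and 4823 at an unadjusted p under 0.05, so the calls on the gene lists given next were lost there as well. With 1 or the other dSETD3 KO array left out, the 3 probes were still called. With no filter on dim probes, the adjusted p was 0.0752 for Jon44E, 0.0943 for A_09_P115450 of kappaTry and 0.0803 for CG8299, and the methods' t-test gave adjusted p values of 0.142, 0.171 and 0.158. In each fit that lacks an array, the lone array is assumed to vary like those of the other genotype.

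**Figure D2:**
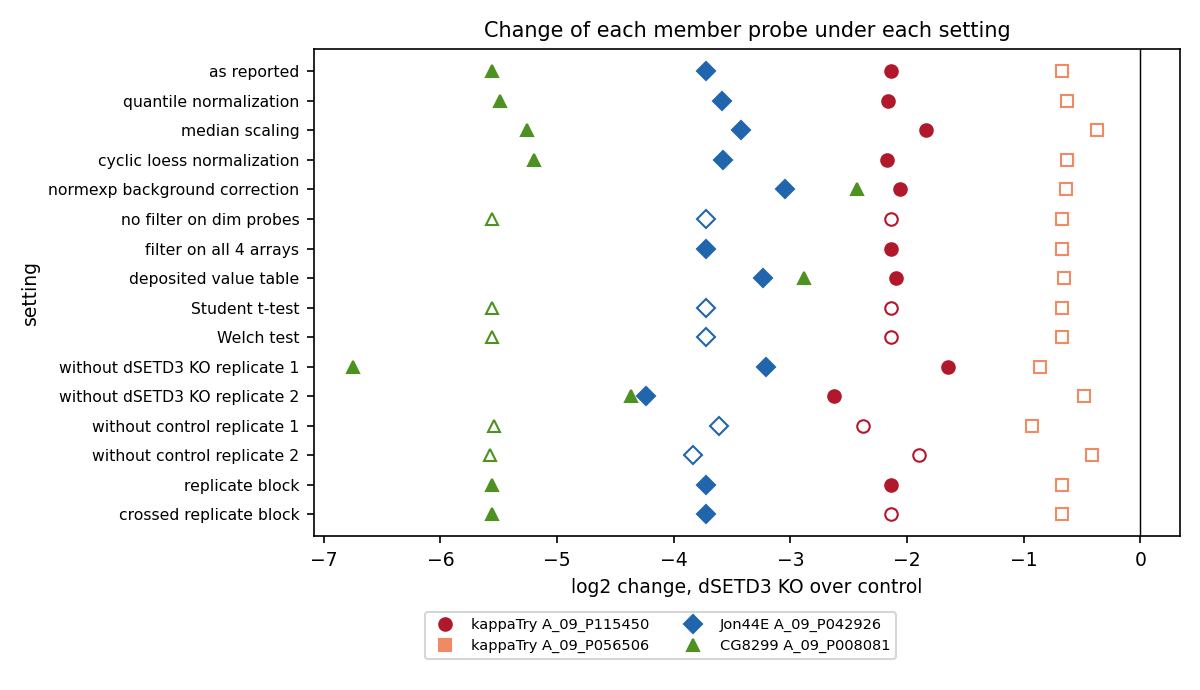
Log2 change (dSETD3 KO over control, horizontal axis) of each member probe under each way of processing the arrays (rows). Filled symbols have an adjusted p under 0.05 and open symbols do not. All changes lie below 0. CG8299 has its smallest change, -2.43, with normexp background correction, and without control replicate 1 or 2 no symbol is filled.

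Dim probes as a whole had lower log2 changes than bright probes, so the members were set against probes of their own brightness. The level of these changes depends on the scaling. Median scaling shifts every change alike, and it moved the median of all probes from 0.02 to 0.32. Only the difference between dim and bright probes is therefore read here, and not an absolute fall of dim probes. When the probes tested were divided into 8 equal classes by their mean scaled signal, the median log2 change of a class ran between -0.35 and 0.17. CG8299 was in the class second from the dim end, where the median was -0.35, and since its change is known only as a bound it was not ranked there. Jon44E was in the fourth class, with a median of -0.16, and A_09_P115450 of kappaTry was in the sixth, with a median of 0.15. In each, 3 of 2635 probes had a change as low as that of the member, itself included. For A_09_P056506, in the fifth class with a median of 0.07, 314 probes were this low. Jon44E and A_09_P115450 of kappaTry were thus at the low edge of their class and the second kappaTry probe was well inside it. The probes at the edge have a name because the study listed them as changed, so their place there is not independent of that choice.

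**Figure D3:**
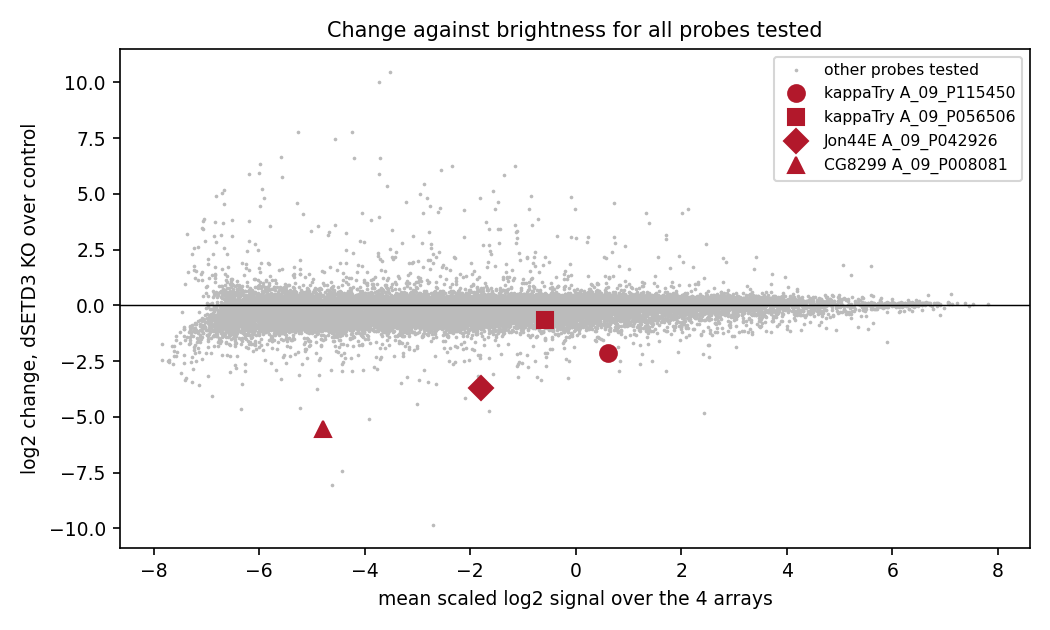
Log2 change (dSETD3 KO over control) against the mean scaled log2 signal over the 4 arrays for the 21082 probes tested (grey) and the member probes (red symbols). Jon44E and A_09_P115450 of kappaTry lie at the lower edge of the cloud, CG8299 is drawn at its fitted change although it was undetected on dSETD3 KO replicate 2, and A_09_P056506 of kappaTry, at -0.67, lies within it.

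Other serine protease genes gave calls in both directions. A list of 25 further genes was used, all of which carry a serine protease or serine protease homologue synonym in RefSeq. Of these, 18 had a named probe and 12 genes with 14 probes were bright enough to be tested. On these, 7 probes of 6 genes were lower and 3 probes of 3 genes were higher in dSETD3 KO flies, that is 50% and 21.4% of the list's tested probes, against 16.5% and 3.82% over all probes tested. The median log2 change was -0.59 on the list, against 0.02 over all probes tested. Of the 12 genes tested, 7 have a name because the study listed them as changed, so these shares are not independent of the outcome. Among the 6 probes of the other 5 genes, named whatever their change, 2 were lower and 0 were higher, with a median of -0.38, and over all the probes that the table of all probes named, 18.4% were lower and 7.2% higher.

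Of the proteases that fell, CG11911 had the lowest change. Its signal was 3658 and 2855 in dSETD3 KO flies, against 11000 and 11717 in control flies, a log2 change of -1.54 ± 0.09 (SE; adjusted p = 0.0115, limma). The groups were well apart and the replicates of each genotype close. CG6048 had a log2 change of -1.42 on each of its 2 probes, so that here, unlike for kappaTry, probes of 1 transcript gave the same size. CG10472 gave 18293 and 13432 in dSETD3 KO flies, against 41013 and 43034 in control flies, with a log2 change of -1.15 (adjusted p = 0.0149). The remaining genes that were called lower, CG17571, CG1773 and CG4927, had log2 changes of -0.95, -0.84 and -0.77. Each of these falls was smaller than those of Jon44E, CG8299 and A_09_P115450 of kappaTry, which were named or chosen with their fall known. Each was larger than that of the other kappaTry probe, A_09_P056506, at -0.67.

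The proteases called higher were dim in control flies, and all 3 were named because the study listed them as changed. CG33465 and CG30098 entered the test only through the dSETD3 KO arrays, where they are high, so their calls support nothing further, and with a filter on all 4 arrays 1 higher call was left. CG33465 gave 57.4 and 42.3 in dSETD3 KO flies, against 4.18 and 4.99 in control flies, where it was not well above background, and was at least 4.30-fold higher (adjusted p = 0.0030, limma). CG30098 gave 75.4 and 44.8 in dSETD3 KO flies, against 7.35 and 3.33 in control flies, and was at least 5.08-fold higher (adjusted p = 0.0193). CG4998 gave 176 and 131 in dSETD3 KO flies, against 51.6 and 83.6 in control flies, with a log2 change of 1.48 (adjusted p = 0.0248). None of the 3 overlapped between genotypes, and on 39.4% of all probes tested both dSETD3 KO arrays were above both control arrays. The 4 other probes tested, of CG34290, CG34409 and CG34437, had log2 changes between -0.41 and 0.06 and were not called. The 9 probes left out of the test had signals of 2.56 to 15.7 in dSETD3 KO flies and 2.86 to 12.5 in control flies.

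**Figure D4:**
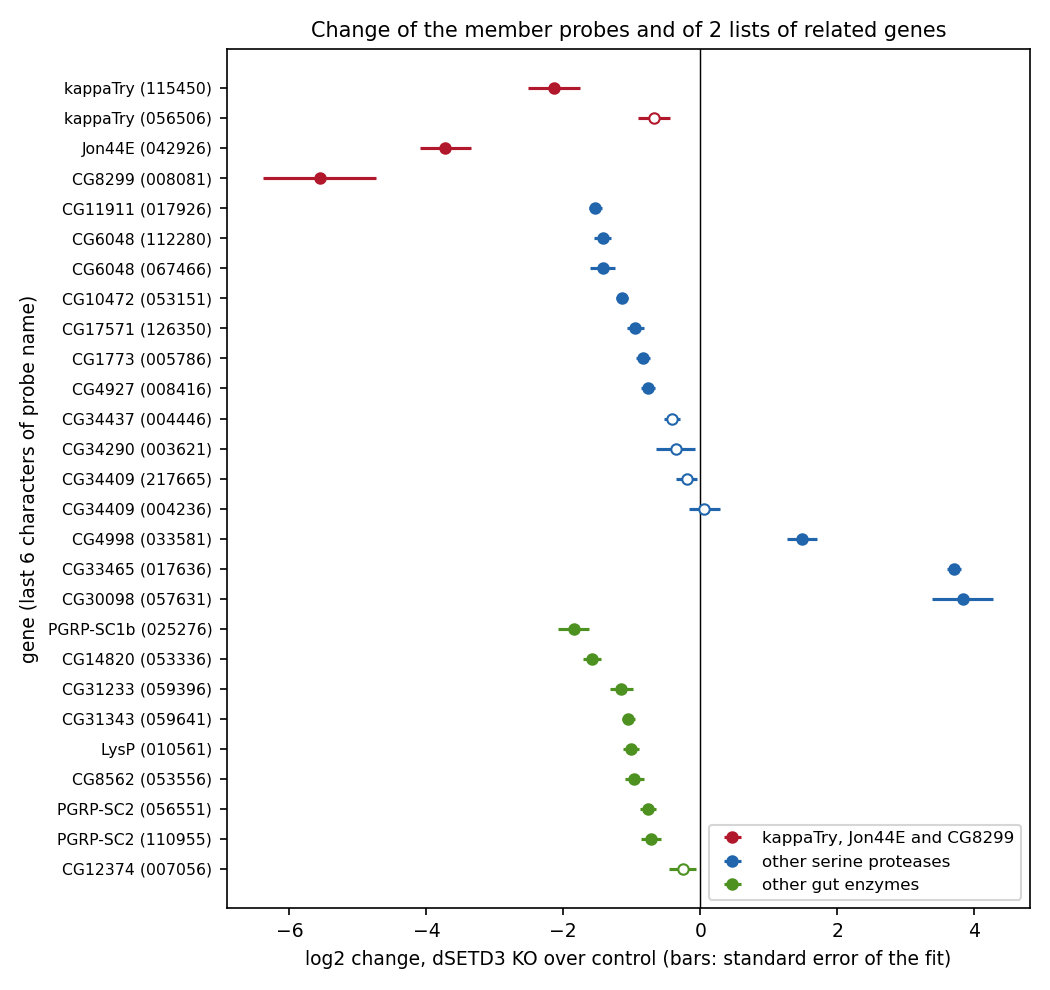
Log2 change (dSETD3 KO over control) ± SE of the fit for the member probes (red), the other serine protease probes tested (blue) and the other gut enzyme probes tested (green). Filled symbols have an adjusted p under 0.05. Jon44E at -3.72 and CG8299 at -5.56 lie below every probe of both lists, of which the lowest is PGRP-SC1b at -1.85, and 3 serine proteases were called higher. A_09_P056506 of kappaTry, at -0.67, fell less than the probes of both lists that were called lower. The points of CG8299, CG33465 and CG30098 are fitted changes of probes undetected on an array or more, for which the text gives bounds.

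Of the other midgut enzymes that could be named, most were lower, but nearly all were named because they had changed. Of 37 genes for carboxypeptidases, aminopeptidases, amylases, maltases, lysozymes, peptidoglycan amidases and lipid-handling proteins, 8 had a named probe. On their 9 probes, 8 were lower and 0 higher in dSETD3 KO flies (16.5% and 3.82% over all probes tested), and the median log2 change was -1.01. The study had listed all but 1 of these genes as changed, so the count is not independent evidence. The exception was the carboxypeptidase gene CG12374, with 93552 and 87897 in dSETD3 KO flies, against 140480 and 122650 in control flies, and its log2 change of -0.26 was not called (adjusted p = 0.339, limma). The gene was well above background on all 4 arrays.

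Among the gut enzymes that fell, the peptidoglycan amidase gene PGRP-SC1b gave 6006 and 6171 in dSETD3 KO flies, against 28600 and 24691 in control flies (log2 change -1.85 ± 0.23, SE; adjusted p = 0.0205). The carboxypeptidase gene CG14820 had a log2 change of -1.58, the aminopeptidase genes CG31233 and CG31343 of -1.15 and -1.05, the lysozyme gene LysP of -1.01 and the carboxypeptidase gene CG8562 of -0.96. The probes of PGRP-SC2 had log2 changes of -0.76 and -0.72. These 8 probes did not overlap between genotypes, and on 37.2% of all probes tested both dSETD3 KO arrays were below both control arrays.

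Markers of some other cells moved as well, beside 16.5% of all probes tested called lower and 3.82% called higher. The yolk protein genes Yp1 and Yp3 had log2 changes of 0.04 and 0.30. Neither was called (adjusted p = 0.827 and 0.0819, limma). The muscle genes, trpl, ninaC, chp, 2 of the 3 Vm34Ca probes and all but 1 of the midgut genes have a name from the study's list of changed probes, so their counts were largely set by that choice, whereas trp, Vm26Aa, Vm26Ab and the other Vm34Ca probe were named whatever their change. Of 8 probes for the muscle genes Act88F, fln and Mlc2, 7 were lower in dSETD3 KO flies (median log2 change -1.34), with signals of 1290 to 35740 in dSETD3 KO flies and 6317 to 78500 in control flies. Of 8 probes for the photoreceptor genes trp, trpl, ninaC and chp, 5 were lower (median -1.06), with signals of 32.5 to 2490 in dSETD3 KO flies and 44.6 to 10639 in control flies. All 5 probes for the vitelline membrane genes Vm26Aa, Vm26Ab and Vm34Ca, active in follicle cells of the ovary, were higher (median 1.77), with signals of 3170 to 127270 in dSETD3 KO flies and 367 to 52202 in control flies. Of 8 midgut marker probes, which belong to the gut enzymes above, 7 were lower (median -0.99). The part of such shifts in the protease values was not tested.

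To see which named genes varied most like each member over the 4 arrays, log2 values were centred on their mean and the root mean square difference was taken over 1359 named genes, as a description. Nearest to Jon44E were CG13203, CG7214, CG31904, the cuticle protein gene Cpr49Ae and the receptor gene Ir47a, at 0.30 to 0.41. CG13203 and Ir47a were not well above background on either dSETD3 KO array. Their places rest on undetected values, and no likeness is read from them. CG7214 gave 53.2 and 46.2 in dSETD3 KO flies, against 538 and 592 in control flies. Nearest to CG8299 were CG3032, CG13319, Def (the antimicrobial peptide Defensin), CG31904 and CG4679 at 0.77 to 1.16. This order rests in part on the undetected value of CG8299 on dSETD3 KO replicate 2, and no likeness is read from it. Nearest to A_09_P115450 of kappaTry were zye, the planar polarity gene mwh, CG34291, the glutathione S-transferase gene GstE4 and CG13196, at 0.07 to 0.25. Of these, CG13196 was not well above background on dSETD3 KO replicate 1. zye, at 0.07, gave 26.4 and 33.7 in dSETD3 KO flies, against 132 and 213 in control flies. No other protease of the lists was among these genes. CG7214, CG31904, CG3032, Def, zye and GstE4 have a name because the study listed them as changed, so their places are not independent of that choice. With so few arrays the measure depends largely on the size of the change between genotypes.

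The genes beside the members gave mixed values. Of the 10 nearest protein-coding genes of CG8299, 5 on each side in RefSeq order, 7 had a named probe. The genes bdg, bug, Mlf and Cyp4aa1 had log2 changes between 0.00 and 0.15 and none was called. CG8366 had a log2 change of -0.63 (adjusted p = 0.0483, limma) and CG8314 of 1.23 (adjusted p = 0.0144). The tested probes of the muscle gene Strn-Mlck ran between -1.28 and -0.02, and most of them were called lower. Beside Jon44E, 2 of 10 genes had a named probe. The Hedgehog receptor gene ptc had log2 changes of -0.74 and -1.46 (adjusted p = 0.0351 and 0.0279, limma). Both of its probes were called lower, as were 16.5% of all probes tested. The probe at -1.46 was not well above background on either dSETD3 KO array and was at least 2.55-fold lower. The acyl-CoA synthetase gene Acsl had a log2 change of -2.12 (adjusted p = 0.0051, limma). Each fitted change was smaller in size than that of Jon44E. Acsl and some of the Strn-Mlck probes have a name only because the study listed a probe as changed. None of the 10 genes beside kappaTry had a named probe, so the trypsins that flank it, such as lambdaTry, zetaTry and alphaTry, were not analysed here.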

How the data were processed

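Total RNA of dSETD3 KO and control virgin females was labelled with Cy3 and hybridised to 1-colour Agilent arrays. The authors deposited Feature Extraction (version 10.7.3.1) output with background-corrected spot intensity values, not normalized between arrays, and a table of spot medians, used as an alternative. Control spots and outliers were left out, the mean log2 value of a probe's spots was taken, and arrays were scaled by subtracting the 75th percentile. A probe was tested if it stood well above background on both arrays of 1 genotype or of both (21082 of 32162), with limma 3.58.1 in R 4.3.3 (lmFit, eBayes, genotype as the only term), with Benjamini-Hochberg adjustment over all of them. The number of arrays, 2 per genotype, limits the precision. The test was tried on simulated data.

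Names came from the study's probe tables, of which only part was used here, and from RefSeq (assembly GCF_000001215.4), and 2783 probes had one. The array annotation uses an older genome release, so no coordinates are given. The members and lists were chosen with earlier results of these data known. The genes named are all members, CG32732, list genes past 2-fold at an unadjusted p under 0.05, the 5 most similar genes by root mean square difference, and named neighbours. Further names outside this rule (list genes under 2-fold and marker genes) were given to account for the lists. "At least" folds set a dim probe, on each array, to the higher of its own signal and the lowest signal of a probe well above background. These folds are not strict limits, since some probes that were not well above background had signals above that lowest value. They hold for the background-corrected signal only. Same-numbered arrays were not treated as pairs. Figures were drawn with matplotlib 3.10.9 in Python 3.11.15.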

Additional observations from a re-analysis of the deposited data

How the results depend on the processing

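All member probes kept a negative log2 change under each of the alternatives run, and no member was called higher. The number of members called lower was 3 under 8 alternatives and 2 with the filter on all 4 arrays and with the crossed pairing. With no filter on dim probes, with the methods' t-test after adjustment, with Welch's test, and without control replicate 1 or 2 (0 to 3 over the arrays left out), 0 members were called. The same 5 settings left 0 lower calls on the serine protease list (0 to 7 over the arrays left out) and on the gut enzyme list (0 to 8), and the serine protease list had 1 higher call with no filter, 1 with a filter on all 4 arrays and 0 under the other 4 settings (0 to 3 over the arrays left out). The median log2 change of the members was -2.93, against -2.25 with normexp and -2.14 with the filter on all 4 arrays, which leaves CG8299 untested. Median scaling moved the median of all probes to 0.32. It subtracts a constant from each array and shifts every change alike, so the place of the members relative to that median could not differ.

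Over all probes, 3488 were lower and 806 higher, and the lower and higher calls were 1416 and 413 with normexp, 26 and 38 with no filter, 2 and 0 with the methods' t-test, and 0 and 0 with Welch's test (unadjusted p under 0.05: 6429 probes by the methods' t-test, 3303 by Welch's test). Higher calls were 1419 with quantile normalization, 8298 with median scaling and 1495 with cyclic loess, and lower calls kept within 1.5 times. Without 1 array, lower calls ranged between 0 and 4037 and higher calls between 0 and 941 (limma, unadjusted p under 0.05: 7170 without control replicate 1 and 4823 without control replicate 2). The cause of these changes was not tested. Deviations of same-numbered arrays correlated at -0.21, and the replicate block gave 390 higher calls and changed no call on a member. The crossed pairing, chosen after seeing the data, gave 1402 lower and 319 higher calls, 5 lower gut enzyme calls, and an adjusted p of 0.0645 for kappaTry (A_09_P115450).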
